A study of Mus musculus with 24 samples.

Results

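The genes described here are 9 transcription factor genes of haematopoietic stem cell self-renewal: Hoxa5, Hoxa7, Hoxa9 and Hoxa10 in the HoxA cluster, Hoxb4 and Hoxb5 in the HoxB cluster, Meis1, Mecom and Hlf. They were taken by name, as 9 of the 55413 GENCODE genes on the standard chromosomes. Every accessible region in a gene or within 50 kb of it was included, and overlapping windows were joined, which gave 5 loci on mm10: HoxA at chr6:52151754-52290854, HoxB at chr11:96253336-96371638, Meis1 at chr11:18829817-19068985, Mecom at chr3:29901296-30598008 and Hlf at chr11:90286536-90440895. The loci held 112 of the 65455 peaks of Daxx-WT LT-HSCs (long-term haematopoietic stem cells).

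Open chromatin was mapped with ATAC-seq, where a transposase (Tn5) cuts accessible DNA, in 24 libraries of cells sorted from the bone marrow of C57BL/6 mice. The series asked what happens to it without Daxx, which deposits the histone variant H3.3, and what follows when the transcription factor Pu.1 is lost as well. All animals carried a Cre transgene, the controls included. Daxx-WT mice were Daxx +/+, Daxx-KO mice were Daxx F/F with the floxed exons removed by induced Cre, and DKO mice were Daxx F/F Pu.1 F/F. LT-HSCs, CMPs (common myeloid progenitors) and GMPs (granulocyte-monocyte progenitors) without a time in their labels had 2 libraries per genotype, and the methods place them 3 weeks after tamoxifen in mice with Rosa26CreERT2, a Cre that acts in all tissues. An early time point, 3 d.p.i. (days after Cre induction), had 2 Daxx-WT and 3 Daxx-KO libraries of LT-HSCs. The methods place it in Rosa26CreERT2 mice too, with tamoxifen injected, where the 3-week set received it by mouth. KLS cells (c-Kit+ Lin- Sca-1+), which mix stem cells with multipotent progenitors, had 2 Daxx-WT, 3 Daxx-KO and 2 DKO libraries at 3 w.p.i. (weeks post induction). The Pu.1 allele was bred onto Mx1Cre mice, in which an interferon-inducible promoter drives Cre. The methods induce Mx1Cre by injected pI:pC (polyinosinic:polycytidylic acid), but the labels do not name the Cre line of the KLS libraries. The labels give Daxx +/+ for every control, while the study's description of the early time point names Daxx +/F beside Daxx +/+ among its controls. The methods place treatment in young adult mice of both sexes and speak of independent biological samples for LT-HSCs, without tying an age or an animal to a library. For the figures that hold the KLS data they speak of 2 or 3 biological replicates, again without tying an animal to a library. All p-values measure the spread between libraries.

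Each group had 1 deposited peak list, so peaks carry no spread between libraries and were compared without a test. LT-HSC lists without a time held wider peaks (median 889 bp in Daxx-WT) than those of CMPs (651 bp) and GMPs (607 bp). The methods add a second, single-read sequencing run for CMPs and GMPs only, and this difference cannot be told apart from the cell type. Of 8 stem cell marker genes, 7 had a start-site peak in Daxx-WT LT-HSCs and 5 in GMPs, while 6 of 11 granulocyte-monocyte markers had one in LT-HSCs and all 11 in GMPs. Ly6a, which encodes Sca-1, was the stem cell marker without such a peak in Daxx-WT LT-HSCs. Fewer cells of a type and less accessibility per cell cannot be told apart in bulk libraries.

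Hox proteins bind DNA through a homeodomain, and Meis1 and Pbx proteins join them on DNA to raise their specificity. Hoxa9 with Meis1 drives stem and progenitor programmes and is a well known leukaemia pair. Mecom encodes Evi1, a zinc finger protein required by stem cells, and Hlf encodes a bZIP factor of the PAR family that marks the most primitive cells. These genes are active in stem cells and are turned down as cells commit to the myeloid lineage.

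To show elements with a different course between LT-HSCs and GMPs, the middle 300 bases of 6 elements away from gene starts are given, 3 that were lost and 3 that were kept. They were read from the plus strand of GRCm38, the assembly of mm10. Capitals mark short motifs on either strand. Meis proteins bind TGACAG. The Hox-Pbx pair binds TGATTNAT. PAR bZIP factors such as Hlf bind TTANNTAA. Gata factors bind AGATAA. Runx factors bind TGTGGT. Ets factors, the family of Pu.1, bind GAGGAAG. The Gata motif can fall inside that of PAR bZIP factors, which reads the same on both strands. The first 3 had a Daxx-WT LT-HSC peak and no Daxx-WT GMP peak: an element in a Mecom intron at chr3:30246629-30246928, an element beyond the 3′ end of Hlf at chr11:90334695-90334994, and an element in a Meis1 intron at chr11:18897772-18898071.
Mecom intron, lost: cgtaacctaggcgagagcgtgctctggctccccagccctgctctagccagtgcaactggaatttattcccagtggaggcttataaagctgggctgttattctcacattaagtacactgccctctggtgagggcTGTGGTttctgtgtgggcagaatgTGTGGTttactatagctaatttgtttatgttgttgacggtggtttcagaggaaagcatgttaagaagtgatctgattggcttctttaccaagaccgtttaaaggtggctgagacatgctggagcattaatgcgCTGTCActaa
Hlf 3′ flank, lost: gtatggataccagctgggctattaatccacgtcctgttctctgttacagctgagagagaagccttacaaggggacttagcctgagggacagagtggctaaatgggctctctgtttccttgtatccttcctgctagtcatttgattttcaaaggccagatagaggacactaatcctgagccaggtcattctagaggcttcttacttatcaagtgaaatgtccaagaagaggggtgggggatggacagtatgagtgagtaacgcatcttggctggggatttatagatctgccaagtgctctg
Meis1 intron, lost: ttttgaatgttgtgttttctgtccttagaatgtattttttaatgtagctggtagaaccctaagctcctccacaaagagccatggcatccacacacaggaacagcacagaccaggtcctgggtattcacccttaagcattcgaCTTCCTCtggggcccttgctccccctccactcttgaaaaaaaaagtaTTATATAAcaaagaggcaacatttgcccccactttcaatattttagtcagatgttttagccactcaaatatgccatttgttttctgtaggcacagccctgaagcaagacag
The other 3 had a peak in LT-HSCs, CMPs and GMPs of Daxx-WT mice: an element in an intron shared by Hoxb6 and the antisense gene Hoxb5os at chr11:96294925-96295224, an element upstream of Hlf at chr11:90417932-90418231, and an element in another Meis1 intron at chr11:18925026-18925325.
HoxB, kept: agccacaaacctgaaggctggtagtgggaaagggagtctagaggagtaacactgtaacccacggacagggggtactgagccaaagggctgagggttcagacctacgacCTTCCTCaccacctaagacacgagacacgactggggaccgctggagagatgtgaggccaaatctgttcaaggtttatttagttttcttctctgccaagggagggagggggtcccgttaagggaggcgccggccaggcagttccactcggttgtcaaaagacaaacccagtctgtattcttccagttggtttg
Hlf upstream, kept: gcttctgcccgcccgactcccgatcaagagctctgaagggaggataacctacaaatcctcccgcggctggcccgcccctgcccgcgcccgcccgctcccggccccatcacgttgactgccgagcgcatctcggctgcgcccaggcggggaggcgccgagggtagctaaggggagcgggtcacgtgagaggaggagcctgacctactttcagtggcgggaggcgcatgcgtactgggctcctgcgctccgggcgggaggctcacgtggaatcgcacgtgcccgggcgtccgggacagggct
Meis1 intron, kept: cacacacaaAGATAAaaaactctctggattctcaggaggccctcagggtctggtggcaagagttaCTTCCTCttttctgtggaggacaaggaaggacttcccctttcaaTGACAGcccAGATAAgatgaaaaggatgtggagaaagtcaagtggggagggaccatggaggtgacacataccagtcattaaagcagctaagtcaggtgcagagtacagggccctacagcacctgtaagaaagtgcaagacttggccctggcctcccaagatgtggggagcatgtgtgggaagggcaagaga
The lost Mecom element held 2 copies of TGTGGT and 1 of TGACAG, and the lost Meis1 element held 1 copy of TTANNTAA and 1 of GAGGAAG. The kept Meis1 element held 2 copies of AGATAA with 1 of GAGGAAG and 1 of TGACAG, the kept HoxB element held 1 of GAGGAAG, and neither Hlf element held any of the motifs.

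Far fewer peaks were found at the 5 loci in GMPs than in LT-HSCs. In Daxx-WT cells their peaks numbered 112 in LT-HSCs, 64 in CMPs and 50 in GMPs, while the whole lists held 65455, 66070 and 65306 peaks. The DNA they covered was 104948 bp, 50333 bp and 34592 bp. Per 1000000 bases covered by the whole list, this was 1669, 1039 and 762 bases. In Daxx-KO cells the peaks numbered 122 in LT-HSCs, 49 in CMPs and 44 in GMPs, but there the whole lists were shorter too, with 70455, 50590 and 49677 peaks.

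**Figure D1:**
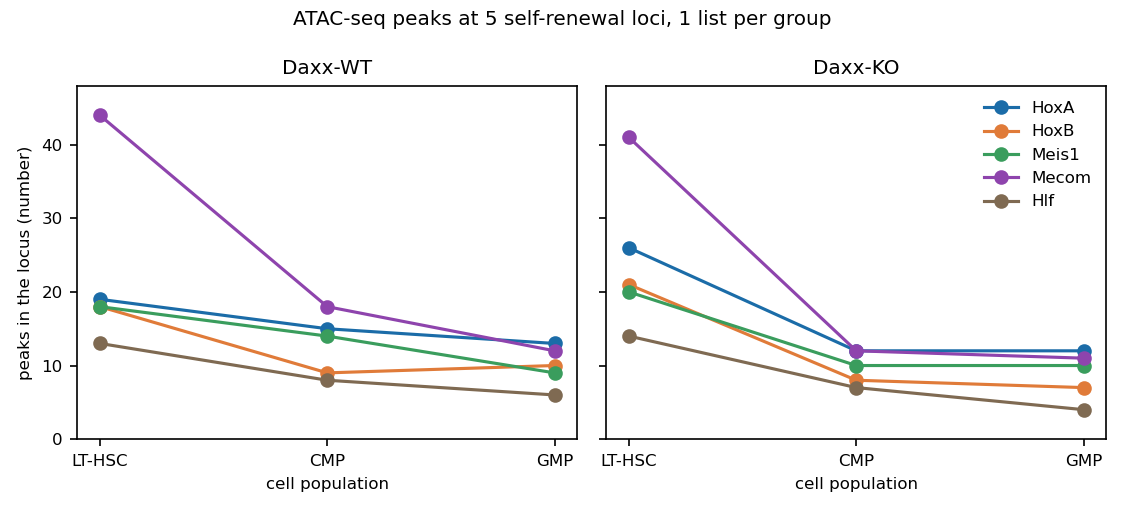
Number of ATAC-seq peaks (vertical axis) at each of the 5 loci in LT-HSCs, CMPs and GMPs (horizontal axis) for Daxx-WT (left) and Daxx-KO (right), with 1 peak list per point and no error bars. Mecom spans the widest range, with 44, 18 and 12 peaks in Daxx-WT cells, and Meis1 has 18, 14 and 9.

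Loss was then counted peak by peak, as Daxx-WT LT-HSC peaks with no overlapping peak in the progenitor list. Of the 112 member peaks, 69 had no GMP peak, which is 61.6% (95% Wilson interval 52.4% to 70.1%, for counting error only). Over all Daxx-WT LT-HSC peaks this share was 36.7%. Without a CMP peak were 53 of 112, or 47.3% (38.3% to 56.5%), against 28.1% of all peaks. The members' shares stood above the background at both steps, and Mecom weighed on them: without that locus they were 51.5% for GMPs and 36.8% for CMPs.

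The loss was uneven between loci. At Mecom, 34 of 44 peaks had no GMP peak and 28 had no CMP peak. At Hlf, 9 of 13 were absent from GMPs and 6 from CMPs. HoxB lacked 10 of 18 in GMPs, with 9 of these 18 already absent from CMPs. Meis1 lacked 9 of 18 in GMPs and 6 in CMPs. HoxA was at the background, with 7 of 19 peaks absent from GMPs and 4 from CMPs.

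**Figure D2:**
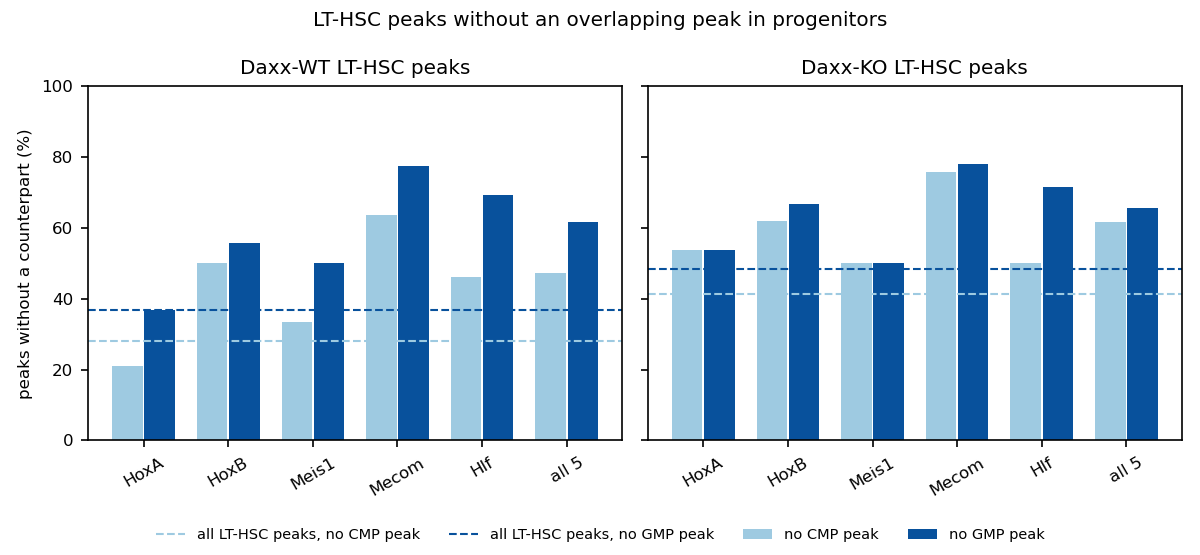
Percentage of LT-HSC peaks (vertical axis) without an overlapping CMP peak (light bars) or GMP peak (dark bars) at each locus and over all 5, for Daxx-WT (left) and Daxx-KO (right), with dashed lines for the same share over all peaks of the LT-HSC list. Daxx-WT HoxA (36.8% without a GMP peak) sits on its background of 36.7%, and Mecom (34 of 44) stands highest.

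Loss was not limited to distal elements. Of the 71 distal member peaks of Daxx-WT LT-HSCs, those more than 1000 bp from every annotated start, 49 had no GMP peak (69.0% against 44.6% of all distal peaks). Of the 41 peaks nearer to a start of any gene, 20 had none, against 19.9% of all such peaks. Each of the 9 members nevertheless had at least 1 peak at a start of its own in all 3 Daxx-WT lists.

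Gains were few. Of the 50 member peaks in Daxx-WT GMPs, 8 had no LT-HSC peak (16% against 34.4% of all GMP peaks). Of the 64 in CMPs, 7 had none (10.9% against 27.0%). In Daxx-KO GMPs it was 2 of 44 (4.55% against 24.4%). When peaks of all 11 lists were joined into 144 regions, 39 were open in LT-HSCs, CMPs and GMPs of Daxx-WT mice, 50 in LT-HSCs only, 18 in LT-HSCs and CMPs, 4 in CMPs and GMPs and 4 in GMPs only. Mecom alone supplied 26 of the 50 regions open in LT-HSCs only.

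Mecom, whose gene spans chr3:29951296-30548008 with 16 annotated starts, had lost peaks along the whole gene. Its covered DNA was 37217 bp in Daxx-WT LT-HSCs, 13007 bp in CMPs and 7205 bp in GMPs. The lost element printed above belonged to a peak of 1564 bp in Daxx-WT and 1767 bp in Daxx-KO LT-HSCs, and no other list of the 11 had a peak there. Another Mecom peak, of 1608 bp at chr3:30160444-30162051 was absent from all 4 CMP and GMP lists, yet it was present with 1399 bp and 1169 bp in Daxx-WT and Daxx-KO LT-HSCs at 3 d.p.i. and with 1537 bp in Daxx-KO KLS cells. The intronic peak at chr3:30514112-30515736 was kept in all 11 lists and measured 1625 bp in Daxx-WT LT-HSCs, 1480 bp in CMPs and 601 bp in GMPs.

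**Figure D3:**
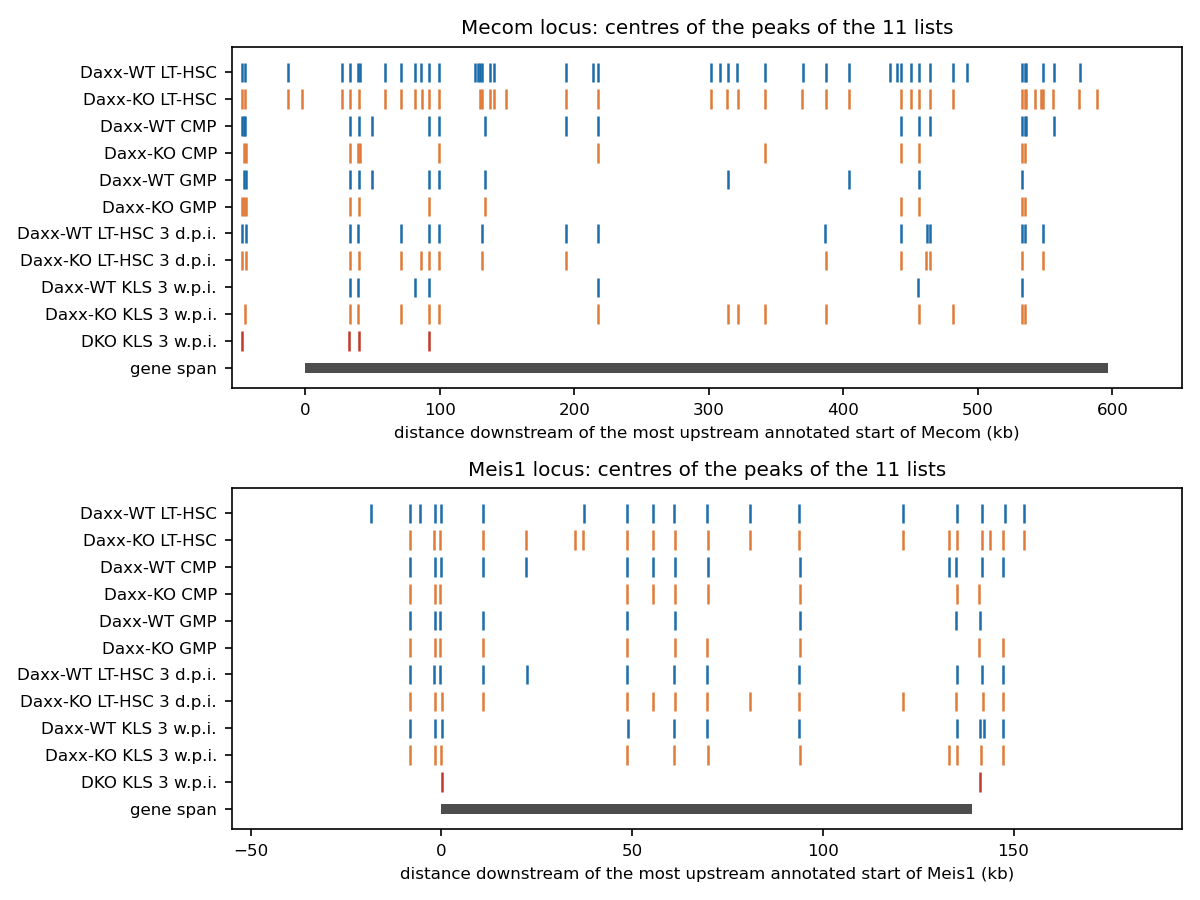
Centres of the ATAC-seq peaks (vertical marks; blue Daxx-WT, orange Daxx-KO, red DKO) of the 11 lists along the Mecom (top) and Meis1 (bottom) loci, by distance in kb downstream of the gene's most upstream annotated start; the grey bar is the gene. The 44 Mecom marks of Daxx-WT LT-HSCs thin to 12 in GMPs, and the DKO line keeps 4 marks at Mecom and 2 at Meis1.

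Hlf lies at chr11:90336536-90390895 on the minus strand, with its widest lost elements inside the gene or beyond its 3′ end and its kept distal elements upstream. The lost element beyond its 3′ end was 1939 bp wide in Daxx-WT LT-HSCs, wider than 97.0% of the peaks in that list, and 1897 bp in Daxx-KO LT-HSCs. It was in no CMP, GMP or KLS list. At 3 d.p.i. it was present in Daxx-WT LT-HSCs (1775 bp) and absent in Daxx-KO LT-HSCs. An intronic peak of 1306 bp at chr11:90355375-90356680 was likewise seen only in both LT-HSC lists without a time.

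The kept Hlf element upstream of the gene was in all 11 lists. Its width was 1180 bp in Daxx-WT LT-HSCs, 715 bp in CMPs and 585 bp in GMPs. The deposited fold enrichment, the height of a peak over its surroundings, was 10.65 in Daxx-WT and 11.99 in Daxx-KO LT-HSCs at 3 d.p.i., then 7.58, 7.46 and 4.61 in Daxx-WT, Daxx-KO and DKO KLS cells. The DKO value was the lowest of the 5, without replicates. The median over the whole list was lowest in DKO as well, with 6.22, 6.35, 5.67, 6.28 and 4.93 in the same order.

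Meis1, at chr11:18879817-19018985, held a set of stable elements. The peak beyond its 3′ end at chr11:18876222-18878359 measured 2138 bp in Daxx-WT LT-HSCs, 2407 bp in CMPs and 852 bp in GMPs, and it was in all 11 lists. The intronic element printed above was in 10 lists, every one but that of DKO KLS cells. Its fold enrichment was 7.61 and 9.24 in Daxx-WT and Daxx-KO LT-HSCs at 3 d.p.i. and 8.20 and 8.16 in Daxx-WT and Daxx-KO KLS cells. The lost Meis1 element measured 1361 bp in Daxx-WT and 1419 bp in Daxx-KO LT-HSCs, and the only other list that held it was that of Daxx-KO LT-HSCs at 3 d.p.i. (1366 bp).

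Of the distal LT-HSC peaks of the Hox clusters, 1 of 4 at HoxA and 3 of 7 at HoxB had a GMP peak. The members lie from Hoxa5 at chr6:52201754-52204587 to Hoxa10 at chr6:52231197-52240854 and from Hoxb5 at chr11:96303336-96306121 to Hoxb4 at chr11:96318267-96321638. At HoxB, 3 distal peaks at chr11:96294305-96295844, chr11:96311052-96312333 and chr11:96278567-96279127 were in all 11 lists, the second of them between Hoxb5 and Hoxb4. The first, which carries the printed element, measured 1540 bp, 1007 bp and 848 bp in Daxx-WT LT-HSCs, CMPs and GMPs. The one distal HoxA peak kept in all 3 Daxx-WT populations, at chr6:52270531-52271025 beyond Hoxa10, measured 495 bp, 671 bp and 314 bp in the same order and was in 8 lists. Among the peaks lost at HoxA was one of 1597 bp at chr6:52233531-52235127 near a start of Hoxa10. It was at 713 bp in Daxx-WT CMPs and in no Daxx-WT GMP peak, but Daxx-KO GMPs retained 813 bp of it, so its loss was not shared by both genotypes.

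Peaks that persisted were mostly narrower in progenitors, as were shared peaks over the whole lists. Of the 43 Daxx-WT LT-HSC member peaks with a GMP peak, 36 were narrower in GMPs, with a median log2 width ratio of −0.61 beside −0.35 over all shared peaks. The ratio was −0.26 for the 59 peaks shared with CMPs, beside −0.28 for all, and 44 of the 59 were narrower. In Daxx-KO cells, 37 of 42 were narrower in GMPs, with a median of −0.71 beside −0.48. At HoxA, all 12 shared peaks were narrower in Daxx-WT GMPs. Over all peaks shared by Daxx-WT LT-HSCs and GMPs, 84.5% were narrower. For Daxx-WT CMPs it was 83.7% and for Daxx-KO GMPs 90.6%. Over the 5 loci the counts of narrower peaks did not stand above these shares.

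Start-site peaks, those within 1000 bp of an annotated start of the gene, differed between members in how far their width changed. Hoxb5, which marks stem cells with lasting reconstitution, had 1098 bp of start-site peaks in Daxx-WT LT-HSCs, 351 bp in CMPs and 383 bp in GMPs. Hoxa10 and Hoxa7, which like Hoxa9 are raised in many leukaemias with Mll fusions, had 2786 bp and 2031 bp in LT-HSCs, 1718 bp and 1302 bp in CMPs, and 577 bp and 755 bp in GMPs. Hoxa9, the partner of Meis1, had 1247 bp, 711 bp and 716 bp. At each of these 4 genes the GMP width was below the LT-HSC width.

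The remaining start sites had no common order. Hoxb4, known to expand stem cells when it is overexpressed, was the one member with a wider start-site peak in GMPs (1772 bp) than in CMPs (1196 bp) and LT-HSCs (882 bp). Meis1 had 1665 bp, 853 bp and 1410 bp in the same order of LT-HSCs, CMPs and GMPs. Hlf had 2681 bp, 944 bp and 2042 bp. Mecom, summed over its starts, had 4182 bp, 3755 bp and 1785 bp, and Hoxa5 had 594 bp, 1100 bp and 481 bp.

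LT-HSC peaks that only 1 genotype had were more frequent at the members than in general, in both directions. Of 122 Daxx-KO LT-HSC member peaks, 26 had no Daxx-WT LT-HSC peak (21.3%, interval 15.0% to 29.4%, against 13.9% of all peaks). In the other direction, 15 of 112 Daxx-WT peaks had no Daxx-KO peak (13.4%, 8.29% to 20.9%, against 6.78%), and 8 of these were at Mecom and 0 at HoxA. The median width of the unmatched peaks was 644 bp and 633 bp, below the 1006 bp and 935 bp of the matched ones.

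Closing with commitment was also counted within Daxx-KO cells. Of the 122 peaks of Daxx-KO LT-HSCs, 80 had no Daxx-KO GMP peak (65.6%, 56.8% to 73.4%), and all Daxx-KO LT-HSC peaks gave 48.3%. For distal peaks it was 55 of 75 against 57.6%. Without a Daxx-KO CMP peak were 75 (61.5%, 52.6% to 69.6%) against 41.3%. Both shares were above the background, as in Daxx-WT cells, and whether the genotypes differ in this was not tested. At HoxA, 14 of 26 Daxx-KO peaks were absent from GMPs and 14 from CMPs.

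Between genotypes, the progenitors differed at the members mostly as they did over their whole lists. Of the 64 Daxx-WT CMP member peaks, 19 had no Daxx-KO CMP peak (29.7% against 28.5%), and 3 of the 49 in Daxx-KO CMPs had no Daxx-WT one (6.12% against 6.26%). Of the 50 in Daxx-WT GMPs, 13 had no Daxx-KO counterpart (26.0% against 27.6%), which is near the background. Conversely, 7 of 44 Daxx-KO GMP member peaks lacked a Daxx-WT GMP peak, which is 15.9% (7.93% to 29.4%) against 4.55% of all Daxx-KO GMP peaks.

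The early time point, LT-HSCs at 3 d.p.i., gave lists with fewer peaks (36949 in Daxx-WT and 44326 in Daxx-KO), with 61 and 68 at the member loci. Of the 68 Daxx-KO peaks, 13 had no Daxx-WT peak (19.1% against 24.1%), and of the 61 Daxx-WT peaks 5 had no Daxx-KO peak (8.20% against 8.68%). All 9 members had a start-site peak in both lists. Of the 61 Daxx-WT peaks, 27 had no Daxx-WT KLS peak (44.3%, 32.5% to 56.7%, against 26.0%). The fold enrichment at the start of Hoxb4 was 5.78 in Daxx-WT and 7.68 in Daxx-KO, and at Hoxa10 it was 6.73 and 8.28. At Hlf it was lower in Daxx-KO (8.19 and 7.56). The other members were higher in Daxx-KO, but Hoxa9 (3.83 and 3.92) and Hoxb5 (4.19 and 4.22) hardly differed. The medians of the whole lists were 6.22 and 6.35, and these values have no replicates.

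Values per library were available at sites that the authors' comparison had selected. A value is the number of reads in a site divided by a scaling constant of its library, and log2 changes are on the scale of log2(value + 1). The limma test was adjusted by Benjamini-Hochberg over all windows that had been tested, 413247 for LT-HSCs at 3 d.p.i. Because the sites were selected on these same libraries, the groups do not overlap at 99.5% of the listed sites and the test is not independent. The libraries had 4.21 to 9.60 reads per window of 600 bp on average. Of the 11927 sites listed for this time point, 17 lay at the member loci: 2 at HoxA, 2 at HoxB, 1 at Meis1, 8 at Mecom and 4 at Hlf.

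Accessibility at 15 of these 17 sites had a lower mean in Daxx-KO, where 70.9% of all listed sites did, and 0 of 17 passed the limma test (smallest adjusted p = 0.30) beside 0% of all listed sites. At an unadjusted p under 0.05 there were 17, and 11454 of all 11927 listed sites. The median log2 change was −1.04 at the members and −1.05 in the table. Of the 17 sites, 4 lay in a peak of either group, with 2 lower and 2 higher, and of all listed sites in peaks 33.7% were lower.

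At the start of Hoxb4, chr11:96318951-96319600, the Daxx-KO LT-HSC libraries had 165, 162 and 145 scaled reads and the Daxx-WT libraries 77.8 and 114. The libraries did not overlap, the log2 change was 0.73, and limma gave an adjusted p of 0.78. A Meis1 intron at chr11:18962851-18963900 had 122, 137 and 145 scaled reads in the Daxx-KO libraries, with 91.3 and 76.9 in Daxx-WT (log2 change 0.68, adjusted p = 0.71 by limma). These were the only listed sites of the 9 genes with more reads in Daxx-KO LT-HSCs.

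Beyond the 3′ end of Hlf, chr11:90334401-90336000 held 107, 111 and 131 scaled reads in Daxx-KO LT-HSCs and 201 and 216 in Daxx-WT (log2 change −0.84, or −0.50 when each library was scaled to its mean reads per window, adjusted p = 0.35 by limma). This site overlaps the printed Hlf element that had no Daxx-KO peak at 3 d.p.i. and none in any CMP or GMP list. An intronic Hlf site at chr11:90352251-90353150 had 17.4, 16.2 and 29.6 against 45.1 and 52.5 (log2 change −1.22). The lowest log2 change at Mecom was in an intron without a peak in any list, chr3:30338801-30339600, with 12.8, 4.77 and 17.9 against 34.9 and 30.0 (−1.54). All 8 listed Mecom sites had a lower mean, with log2 changes from −1.54 to −0.67.

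**Figure D4:**
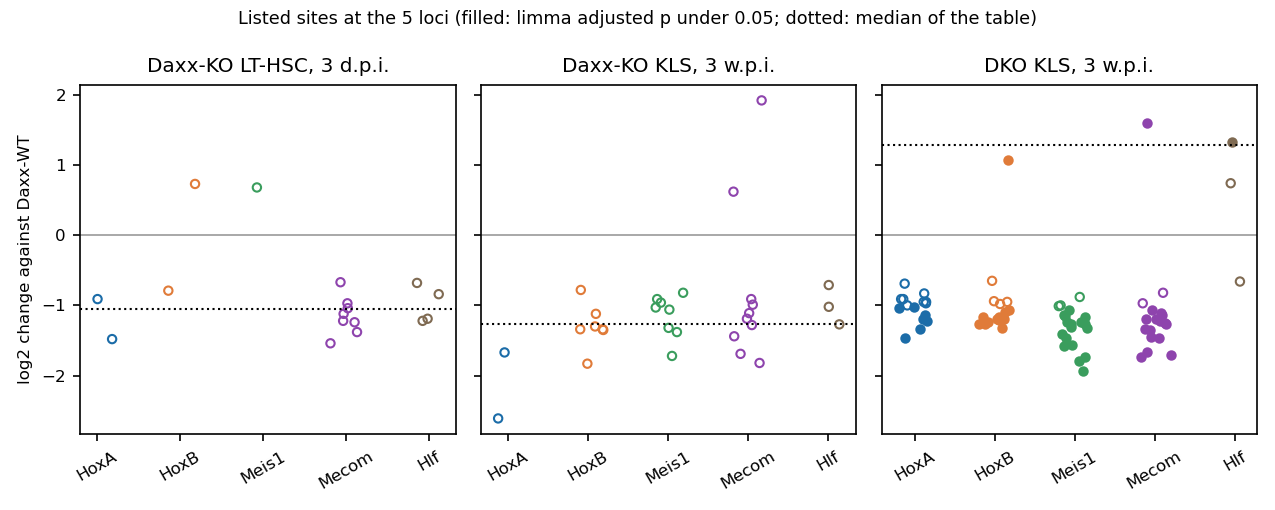
Log2 change of scaled reads against Daxx-WT (vertical axis) for each listed site at the 5 loci in the 3 comparisons, with filled points for a limma adjusted p under 0.05 and a dotted line at the median of all listed sites. In DKO KLS cells 68 of 72 member sites are below 0 while the median of the table is 1.29, and in both Daxx-KO panels the members sit around the table's own median (−1.05 and −1.27).

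KLS cells at 3 w.p.i. held 38 member peaks in Daxx-WT, 51 in Daxx-KO and 19 in DKO, in lists of 33325, 44694 and 22156 peaks. Of the 51 Daxx-KO peaks, 18 had no Daxx-WT peak (35.3%, 23.6% to 49.0%), beside 31.8% of all Daxx-KO KLS peaks, and 9 of these 18 were at Mecom. The lost Mecom peak at chr3:30160444-30162051 was one of them. In reverse, 4 of the 38 Daxx-WT peaks had no Daxx-KO peak (10.5% against 8.06%). Hoxa5 had no start-site peak in any KLS list.

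Of 17311 listed sites in Daxx-KO KLS cells, 30 were at the members: 2 at HoxA, 7 at HoxB, 8 at Meis1, 10 at Mecom and 3 at Hlf. The mean was lower in Daxx-KO at 28 of them, where 80.9% of all listed sites were lower. By limma, 0 of the 30 passed (smallest adjusted p = 0.28), as did 0% of the table. At an unadjusted limma p under 0.05 there were 29, and 16749 of all 17311 listed sites. The Daxx-KO and Daxx-WT libraries did not overlap at any of the 30, as at 99.6% of all listed sites. The median log2 change was −1.23 at the members and −1.27 in the table. Again most sites lay outside peaks: 6 were in a peak of either group and 5 of these 6 were lower, where 39% of all sites in peaks were.

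At the start of Hlf, chr11:90391151-90392500, Daxx-KO KLS libraries had 43.4, 30.6 and 50.8 scaled reads against 84.8 and 82.5 in Daxx-WT (log2 change −1.02, adjusted p = 0.37 by limma). A second Hlf start at chr11:90382101-90382950 had 55.7, 49.0 and 50.8 against 89.4 and 81.4 (−0.71). Both starts were low in each Daxx-KO library, without passing the test, and with each library scaled to its mean reads per window their changes were −0.53 and −0.22. At Mecom, chr3:30000301-30000900 had 23.4, 15.8 and 17.9 scaled reads in the Daxx-KO libraries, with 7.3 and 2.29 in Daxx-WT (log2 change 1.92, adjusted p = 0.28 by limma), 1 of the 2 member sites with a higher mean. The lowest values were in a HoxA intron at chr6:52187051-52187800, with 11.1, 0.87 and 3.76 against 26.4 and 29.8 (−2.61).

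In DKO KLS cells most listed sites at these genes were less accessible than in Daxx-WT cells. Of 50928 listed sites 72 were at the members, 68 of them lower in DKO (94.4%), although in the table as a whole only 27.9% were lower. Accessibility fell at 50 of 72 sites by limma with Benjamini-Hochberg adjustment over 446463 windows (69.4%, against 14.9% of all listed sites) and rose at 3, against 67.3% of all listed sites. The median log2 change was −1.18 at the members and 1.29 in the table, and the SE was 0.36 at every member site because limma pooled the variance over the table. The calls needed both DKO libraries: without either one 0 of 72 passed, and without Daxx-WT library 1 it was 28. The direction held in each of these, with 68 of 72 lower. The groups did not overlap at any of the 72 sites, as at 100% of all listed sites (50909 of 50928).

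Scaling bears on these counts. Scaling each library to its mean reads per window moved the median log2 change of all listed DKO sites by −0.67. Then 68 member sites fell, against 27.2% of all listed sites, and 0 rose, against 6.52%. In the DKO table, 28 member sites lay in a peak of DKO or Daxx-WT KLS cells, and 27 of these were lower, with 16 passing the test, while 69.8% of all listed sites in peaks were lower and 31.0% passed as lower.

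The fall was spread over Meis1, Mecom and both Hox clusters. Meis1 fell at 17 of 20 sites, Mecom at 15 of 18, HoxB at 11 of 16 and HoxA at 7 of 15. Hlf fell at 0 of 3 and rose at 1. HoxB and Mecom each had 1 site that rose.

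The largest fall at any member was in the printed Meis1 intron. At chr11:18924301-18926000 the DKO libraries had 78.5 and 61.8 scaled reads and the Daxx-WT libraries 275 and 263, a log2 change of −1.93 with a limma adjusted p of 8.9e-06. The peak at this place, kept from LT-HSCs to GMPs, was missing from the DKO list alone among the 11. A second intronic site at chr11:18969201-18971050 fell from 306 and 274 to 97.6 and 75.9 (−1.74). The start at the upstream end of Meis1, chr11:19017801-19019500, fell from 373 and 293 to 141 and 125 (−1.31, limma adjusted p = 0.0043).

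The start sites of the HoxA genes were lower as well, at different strengths. A start inside Hoxa7, at chr6:52216251-52219400, fell from 462 and 440 in Daxx-WT to 144 and 185 in DKO (log2 change −1.46, limma adjusted p = 0.0011). The most upstream Hoxa7 start, at chr6:52221401-52222900, had 308 and 318 in Daxx-WT and 181 and 153 in DKO (−0.91). It did not pass (limma adjusted p = 0.11). A start inside Hoxa10, at chr6:52232701-52235500, fell from 398 and 382 to 137 and 202 (−1.22, limma adjusted p = 0.0093). The most upstream Hoxa10 start, at chr6:52239801-52240950, fell from 146 and 111 to 66.8 and 58.1 (−1.02). It passed just under the threshold (limma adjusted p = 0.050). A start inside Hoxa9, at chr6:52225051-52227350, had 383 and 386 in Daxx-WT and 183 and 209 in DKO (−0.97). With a limma adjusted p of 0.070 it did not pass. Nor did the most upstream Hoxa9 start, at chr6:52228401-52232000 (−0.95, limma adjusted p = 0.081). Hoxa5 did not pass either (−0.95, limma adjusted p = 0.080). Each of the 4 genes had DKO libraries below both Daxx-WT libraries. Scaled to mean reads per window, the most upstream Hoxa7 start, the start inside Hoxa9 and that of Hoxa5 passed too. Their log2 changes were −1.60, −1.66 and −1.64 (limma adjusted p = 0.0094, 0.0052 and 0.0054).

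Hoxb5 at chr11:96303801-96305550 fell from 154 and 151 to 59.4 and 76.8 (log2 change −1.17, limma adjusted p = 0.015). No listed DKO site lay within 1000 bp of a start of Hoxb4, whose start-site peak was in the DKO list with 751 bp and a fold enrichment of 4.85. A Mecom start at chr3:30508501-30510400 had 422 and 419 in Daxx-WT and 269 and 210 in DKO (−0.82) and did not pass (limma adjusted p = 0.21; 0.016 when scaled to mean reads per window). Mecom fell most in introns, at chr3:30466051-30466900 from 55.9 and 53.7 to 8.48 and 29.0 (−1.73). A Mecom intron at chr3:30450651-30451300 rose from 15.1 and 8.77 to 33.9 and 40.3 (1.60, limma adjusted p = 3.1e-04; 0.94 and 0.27 when scaled to mean reads per window).

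**Figure D5:**
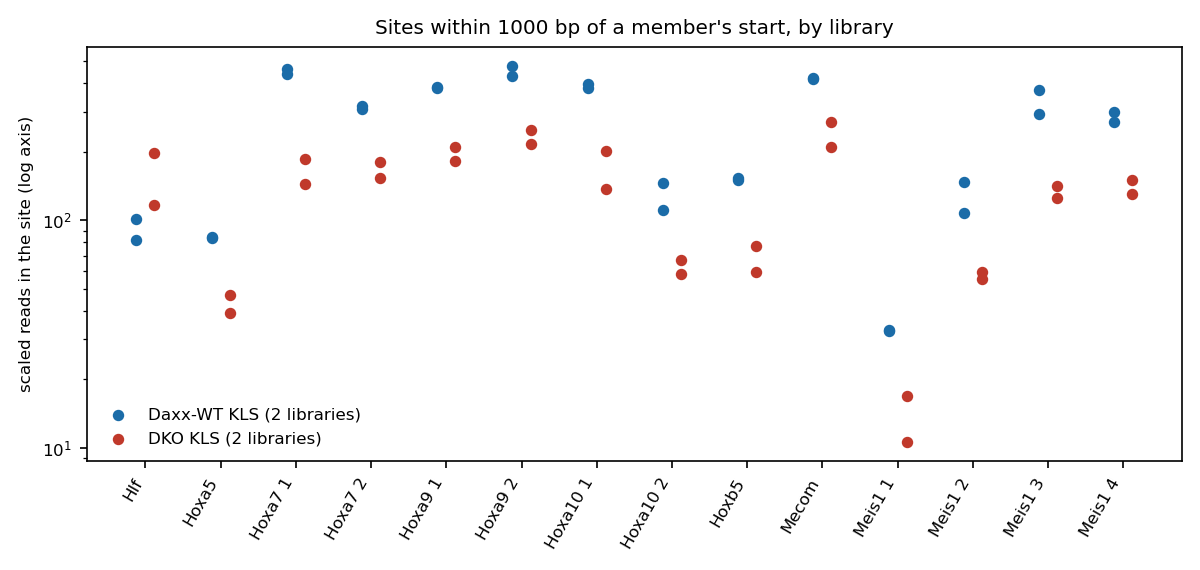
Scaled reads per library (vertical log axis) at the listed DKO sites within 1000 bp of a start of the 9 genes, with blue points for the 2 Daxx-WT and red points for the 2 DKO KLS libraries; a number after a gene counts its sites in order of position. The DKO libraries lie below the Daxx-WT libraries at each start shown except that of Hlf, where they reach 198 and 117 against 81.7 and 101, a log2 change of 0.74 that was 0.05 when scaled to mean reads per window.

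At Hlf, 2 of the 3 listed sites had a higher mean in DKO cells. An annotated start at chr11:90387801-90388850 had 198 and 117 scaled reads in DKO and 81.7 and 101 in Daxx-WT (log2 change 0.74, limma adjusted p = 0.35). A site at chr11:90415651-90416250 rose from 10.7 and 15.4 to 31.8 and 35.6 (1.33, limma adjusted p = 0.0037). The neighbouring kept element, at chr11:90417701-90418600, had 176 and 163 in Daxx-WT and 122 and 93.7 in DKO (−0.66) and did not pass. Scaled to mean reads per window, these changes were 0.05, 0.67 and −1.35, so that the second site no longer passed and the kept element did (limma adjusted p = 0.66 and 0.039). Whether Hlf differs from the other genes in this was not tested.

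In the DKO peak list the members' loss was near the background for distal peaks and above it near gene starts. Of 38 Daxx-WT KLS member peaks, 23 had no DKO peak (60.5%), and the interval of 44.7% to 74.4% holds the 48.4% of all peaks. Meis1 supplied 9 of them, out of its 11 (81.8%, 52.3% to 94.9%). For distal peaks the share was 15 of 22 (68.2%), beside 68.1% of all distal peaks, and for peaks near a start it was 8 of 16 against 24.7%. Hoxa5, Hoxa9, Hoxa10 and Hoxb5 had no start-site peak in the DKO list, and the other 5 members kept one. Of the Daxx-KO KLS peaks, 35 of 51 had no DKO peak (68.6% against 59.4%). Conversely, 4 of the 19 DKO peaks had no Daxx-WT peak (21.1% against 21.4%). Of the 8 stem cell markers, 4 had a start-site peak in Daxx-WT, 6 in Daxx-KO and 3 in DKO KLS cells, in lists of unequal length. Granulocyte-monocyte markers had 6, 7 and 6 of 11. The part of a changed cell make-up in the members' values was not tested.

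Listed DKO sites lay on both lost and kept LT-HSC elements, in shares that varied between loci and were not tested against each other. At Meis1, 8 of the 9 peaks kept from LT-HSCs to GMPs held a listed DKO site and 4 of the 9 lost ones did. At HoxA it was 9 of 12 kept and 5 of 7 lost peaks, at HoxB 4 of 8 and 7 of 10, and at Mecom 4 of 10 and 9 of 34. At Hlf, 1 of 4 kept peaks and 0 of 9 lost peaks held one.

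Few sites were listed in more than 1 comparison. Of the 30 Daxx-KO KLS sites, 7 (23.3%) overlapped a DKO site, which is 9.72% of the 72 DKO sites. These comparisons share their Daxx-WT libraries, and 5 pairs had the same direction and 2 the opposite. LT-HSCs at 3 d.p.i. and Daxx-KO KLS cells shared 1 pair of overlapping sites, at Hoxb4, and no member site of LT-HSCs at 3 d.p.i. overlapped a DKO site.

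The sequence motifs were counted in the middle 300 bases of peaks. TGACAG was in 23.2% of the 112 member peaks of Daxx-WT LT-HSCs and in 20.2% of all peaks in that list. TGATTNAT was in 2.68% against 3.14%, AGATAA in 8.93% against 13.2%, TGTGGT in 15.2% against 25.1% and TTANNTAA in 3.57% against 6.12%. GAGGAAG was in 16.1% against 19.2%. In the DKO table, GAGGAAG was in 27.9% of all sites that were lower and in 10.9% of those that were higher, and in 7 of the 68 lower member sites (10.3%). These shares describe the letters alone. Among RefSeq promoters of GRCm38, each 300 bases long, GAGGAAG was in 13.6% and, of the members, in that of Hoxa9. TGACAG was in 19.2% and in that of Mecom, and TGTGGT in 16.8% and in that of Meis1.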

How the data were processed

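The libraries were grouped by the genotype, population and time in their labels. Per the submitters' processing notes, CASAVA 1.8.4, cutadapt 1.13, STAR 2.5.3 and bedtools were used and the build was mm10; the peak caller and its settings are not given in the sources used here. The authors deposited 11 peak lists: 6 with positions alone, and 5 conservative lists of peaks reproducible between libraries (IDR), whose fold enrichment (a ratio over local background) is the authors' and was used only as a description of strength. The lists with fold enrichment repeat an interval for each summit, and each interval was counted once with its highest fold. The authors also deposited 3 tables from diffReps 1.55.6, which, per the file headers, slid a 600 bp window in steps of 50 bp, merged windows under a p-value of 0.0001 into sites, and give for each library the reads of a site divided by a normalisation constant (scaled reads, a signal). Their columns of group means, fold changes, p-values and adjusted p-values hold the authors' own comparison and were not used.

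Peaks were called shared at an overlap of at least 1 bp. Distal means more than 1000 bp from every GENCODE start. Sites were fitted with limma 3.58.1 in R 4.3.3 on log2(value + 1), per table and over all its sites, with Benjamini-Hochberg adjustment over all windows in the header and a threshold of 0.05. The step was tested on simulated data. Python 3.11.15, pandas 2.3.3, numpy 2.4.6 and SciPy 1.17.1 were used for the rest. No total read numbers were known. Depth was known only for the tables, as 4.21 to 16 reads per window, so precision is that of these values, and Wilson intervals on peak shares cover counting error only. The Daxx-WT KLS libraries differed by less than the sampling noise over the sites of the Daxx-KO table (squared deviation 0.969 times the binomial) but by more over those of the DKO table (1.87 times), and were kept as 2 libraries. Sequences were read from GRCm38.p6, whose chromosomes held all peaks of the lists. RefSeq promoters gave 10 entries for the members.

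The members, lists, tests and motifs were chosen with earlier results of these data known. Peaks were named by rule: start-site peaks of each member, the 3 widest Daxx-WT LT-HSC peaks per locus without a Daxx-WT GMP peak and the 3 widest distal peaks kept in all 3 Daxx-WT populations. Sites were named as the 3 with the largest log2 change in each direction per locus and table, and all within 1000 bp of a member's start. Replicate numbers paired Daxx-WT with Daxx-KO or DKO KLS libraries for 2 pairs each, and the deviations of same-numbered libraries correlated at 0.03 and 0.00. With 2 pairs, at sites selected on these same libraries, this cannot decide whether equal numbers mean a shared origin. The main fits did not use the numbers. Alternatives were other overlap rules, windows, list sizes, filters, scalings, pseudocounts and limma settings, and leaving out each library or locus.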

Additional observations from a re-analysis of the deposited data

Results flagged for a closer look

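Overlapping sites at Hoxb4 were listed with opposite directions in 2 comparisons. The LT-HSC site (3 d.p.i.) within 1000 bp of the start, chr11:96318951-96319600, had a log2 change of 0.73, with all 3 Daxx-KO libraries above both Daxx-WT libraries. In KLS cells at 3 w.p.i. the overlapping intronic site at chr11:96319351-96319950, 1084 bp from the start, had a log2 change of −0.78, with all 3 Daxx-KO libraries below both Daxx-WT libraries. Scaled to mean reads per window, the changes were 1.07 in LT-HSCs and −0.30 in KLS cells. The start-site peak of Hoxb4 was 926 bp wide in Daxx-WT and 1268 bp in Daxx-KO KLS cells. Its fold enrichment was 5.48 and 6.38, beside list medians of 5.67 and 6.28, without replicates. Neither site passed the limma test with Benjamini-Hochberg adjustment. The difference between the 2 comparisons was not tested, since each table was scaled on its own.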

How the results depend on the processing

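Of 150 values recomputed for the main counts and shares, 128 kept within their limits and 22 moved. The share of Daxx-KO KLS member peaks without a Daxx-WT peak, 35.3% against 31.8% of all, did not stay above its background. It was 24.3% against 31.8% with windows of the gene and 10 kb, and 40.0% against 42.3% for distal peaks. With at least 50% of a peak covered, the shares without a progenitor peak were 72.3% (Daxx-WT GMP), 78.7% (Daxx-KO GMP) and 71.3% (Daxx-KO CMP), against 44.6%, 57.7% and 49.2% of all peaks, and with lists of equal length 55.4% (Daxx-KO GMP) against 40.1%. Without the Mecom locus, an alternative chosen after seeing the data, they were 51.5% (Daxx-WT GMP) and 36.8% (Daxx-WT CMP). Among peaks above the median fold enrichment, 85.7% of 7 Daxx-WT KLS peaks had no DKO peak (44.9% of all) and 54.5% of 11 Daxx-KO KLS peaks had no Daxx-WT peak (30.7% of all). Member sites passing the test in LT-HSCs at 3 d.p.i. numbered 7 with a limma trend and 17 with adjustment over the listed sites alone. Over all 11927 listed sites these numbers were 5366 and 11428. In Daxx-KO KLS cells adjustment over the listed sites alone gave 29 member sites, and the replicate block gave 6 (without Daxx-KO library 3, which has no partner). In DKO KLS cells they numbered 0 to 47 when 1 library was left out (0 without either DKO library, 28 and 47 without Daxx-WT library 1 and 2), 31 within gene bodies and 16 in peaks, and 55 with the replicate block. In Daxx-KO KLS cells 16749 of all 17311 listed sites had an unadjusted limma p under 0.05. Of all listed DKO sites in peaks, 31.0% passed as lower. The other KLS counts of passing sites describe the members alone. They are not set beside all listed sites here, so no excess at the members can be read from them. Lower means numbered 2 in peaks for LT-HSCs, 16 in gene bodies and 5 in peaks for Daxx-KO KLS cells, and 38 and 27 for DKO, from fewer sites by construction. Among 56 named sites none reversed: 461 values kept their call, 60 gained it and 56 lost it. Other causes were not tested. No paired analysis was possible for LT-HSCs at 3 d.p.i. because the columns carry no replicate number. The planned count test with edgeR was not run, since the tables hold scaled values of selected sites alone. Scaling to mean reads per window moved the median of the tables by 0.33 (LT-HSCs), 0.47 (Daxx-KO KLS) and −0.67 (DKO). With 4.21 to 16 reads per window, small changes were not detectable.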

Other observations

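Other stem cell factors lost LT-HSC peaks in Daxx-WT GMPs at a share like that of the 9 genes. Among 7 other self-renewal factors, 73 of 110 Daxx-WT LT-HSC peaks had no GMP peak (66.4%), with 20 of 25 at Prdm16. The share was 47.3% at 7 Hox cofactor genes (35 of 74) and 26.1% at 5 chromatin regulators of Hox genes (12 of 46), beside 36.7% of all peaks. The other HoxA genes had 7 of 21 (33.3%) and the other HoxB genes 15 of 27 (55.6%), in windows that mostly overlap those of the members.

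In DKO KLS cells the sites of the Hox cofactors moved much as the whole table did: 8 of 52 fell and 37 rose, beside 14.9% and 67.3% of all listed sites. By gene, sites at Pknox1, Pknox2 and Meis3 rose (12, 7 and 8 sites, all past the limma threshold with Benjamini-Hochberg adjustment), while Pbx3 had 3 sites with a lower mean. At the other self-renewal factors 31 of 77 fell and 33 rose. Without either DKO library no member site passed the test, and scaling to mean reads per window moved the median of the table by −0.67; neither was recomputed for the calls of these lists.

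For 4 of the loci, the genes whose covered DNA followed that of the locus most closely over the 11 peak lists were Esrrb for Mecom (Pearson r = 0.968), Igsf11 for Hlf (0.972), 3100002H09Rik for Meis1 (0.970) and Pla2g2d for HoxB (0.963), among 18381 genes. The lists differ in length and peak width, which all genes share, so these values are a description.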
